A study of Drosophila melanogaster with 15 samples.

Results

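The genes tailless (tll), huckebein (hkb), buttonhead (btd), empty spiracles (ems), ocelliless (oc, also called orthodenticle) and cap-n-collar (cnc) are the terminal and head gap genes followed here. They were taken by name. A probe set is a group of array probes whose readings give 1 signal. It was a member where its single platform gene symbol was among these 6, out of 10844 genes with a single symbol. This gave 9 of the 13966 probe sets tested, 1 each for tll, hkb, btd, ems and oc and 4 for cnc.

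RNA of whole, hand-picked Drosophila melanogaster embryos was measured on Affymetrix arrays at 5 stages, with 3 arrays per stage and 15 in all. At T0 the embryos had not reached nuclear cycle 9 or formed pole cells, and lived mostly on RNA laid down by the mother. T1 stands for the slow phase of cellularisation, when each nucleus of the blastoderm is being enclosed in a cell, and T2 for its fast phase. For T3 and T4 the sources differ: the sample labels give the beginning and end of germ band elongation, the series text those of gastrulation. Both laboratory stocks yellow white and Oregon R are given for every group, as the parents at T0 and T1 and as the embryos at T2, T3 and T4, and which array holds which is not said. Eggs were collected over 30 min at 25 °C and aged at room temperature, and the labels list no agent. Each array is a pool of whole embryos, so that fewer cells with a transcript and less of it per cell cannot be told apart. The labels do not say that the arrays of a stage came from separate collections. A p-value therefore sets a difference only against the scatter of these arrays within stages, and that scatter may be technical.

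The ends of the embryo are set by a maternal signal. The receptor tyrosine kinase Torso is activated at both poles by its ligand Trunk with the help of Torso-like, and the Ras and MAP kinase cascade then lifts the repression that Capicua and Groucho exert on tll and hkb. tll encodes an orphan nuclear receptor and hkb a zinc finger protein, and both act at the poles, where the gut ends and, for tll, the brain are specified. In the head, high levels of the maternal Bicoid protein switch on btd, a zinc finger gene of the Sp family, and the homeobox genes ems and oc, whose expression domains overlap and whose loss removes groups of head segments. cnc encodes a basic leucine zipper protein that patterns the labral and mandibular regions, and other forms of it respond to oxidative stress in later life.

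Signals are in array units, scaled by the authors so that the trimmed mean of each array is 100. They are relative to the RNA of the same embryos and do not compare 1 gene with another. Signals up to 22.0, the 95th percentile over 15 bacterial negative-control probe sets, are treated as background, which took in 39.0% to 49.7% of each array. Fold changes are on the log2(signal + 7.3) scale, which understates the change of dim genes. To be called, a probe set needed an adjusted p under 0.05 in limma, over all 13966 probe sets, and a log2 fold change of 1 or more in either direction. The stage labels were held against marker genes. The measured maternal markers osk, BicC and exu were called lower at T1 than at T0. All 5 cellularisation markers (nullo, Sry-alpha, bnk, slam and halo) were called higher at T1 than at T0. The 5 measured markers of germ band elongation (en, gsb, pnr, ac and sc) were called higher at T4 than at T0. However, 4 of the 5 cellularisation markers were called lower at T2 than at T1, beside 4.25% of all probe sets, although T2 is labelled fast cellularisation. Of the elongation markers 4 were already called higher at T2 than at T0, beside 11.2% of all, and 0 for T4 against T3. Comparisons with T0 therefore do not test the order of the labels from T2 to T4. Of the 5 measured markers of adult tissue, the yolk protein gene Yp1 had stage means between 4.30 and 6.80, below the background level, and Yp3 between 12.2 and 23.0, about at it. Yp2 had stage means between 41.9 and 75.8, and the eggshell genes Cp36 and Cp18 between 23.8 and 48.5 and between 79.0 and 127. Hand-picked embryos should lack these transcripts. A signal somewhat above 22.0 may therefore not stand for RNA of the embryo. Stage means within the range of Yp2 were those of btd at T0, of tll at T2, T3 and T4, and of ems at T2 and T3. Those of oc at T4 and of the cnc probe set 150432_at at all stages lay there too, and the range of Cp18 is higher still.

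All of tll, hkb, btd, ems and oc were higher at T1 and at every later stage than at T0, whereas no probe set for cnc was called higher at any stage. In the moderated F test of limma 6 of the 9 probe sets changed at an adjusted p under 0.05, beside 44.1% of all probe sets. These were those of tll, hkb, btd, ems and oc and 1 of the 4 for cnc. For T1 against T0, 5 of the 9 were called higher, where 7.82% of all probe sets were, and 1, for cnc, was called lower, where 15% were. The same 5 were called higher against T0 at T2, at T3 and at T4, where 11.2%, 11% and 11.9% of all probe sets were. Those for tll, hkb, ems and oc lay at or below the background level on all T0 arrays and above it on all 12 later arrays, a pattern that 166 of the 13966 probe sets (1.19%) had. With each gene represented by its brightest probe set, the median log2 fold change of the 6 genes for T1 against T0 was 3.26, beside 0.08 for all probe sets.

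**Figure D1:**
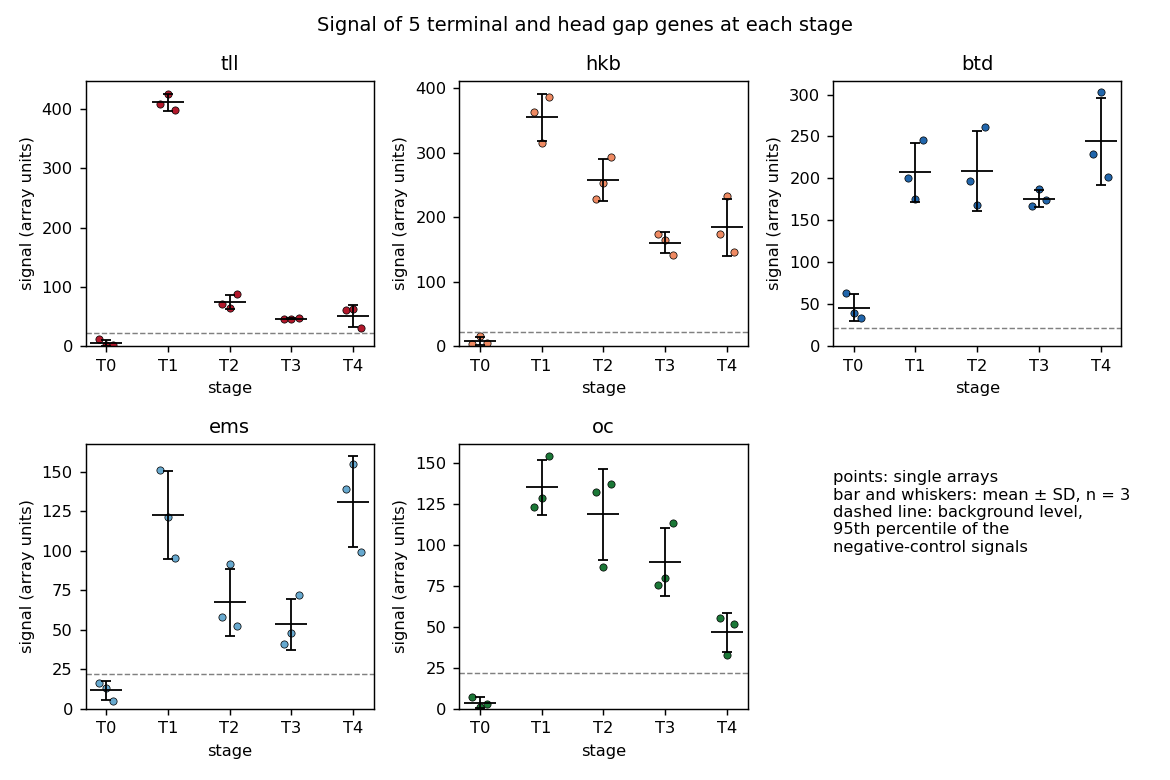
Signal in array units (vertical axis, linear) of tll, hkb, btd, ems and oc at the stages T0 to T4 (horizontal axis). Points are single arrays, the bar with whiskers is the mean ± SD of 3 arrays, and the dashed line is the background level of 22.0. All 5 genes were called higher at T1 than at T0, as were 7.82% of all probe sets. Of the 5, tll alone lay below 100 on all arrays of T2, T3 and T4.

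The nuclear receptor gene tll had 11.4, 1.80 and 1.80 on the T0 arrays, 409, 426 and 399 at T1, 71.3, 65.1 and 87.5 at T2, 46.3, 45.2 and 47.5 at T3, and 61.2, 61.9 and 30.0 at T4. The T1 arrays stood apart from those of every other stage, and the T2 arrays stood above those of T3 and T4. At T1 tll was at least 18.7-fold higher than at T0, where the T0 side stands at the background level. The fitted log2 fold change for T1 against T0 was 5.18 ± 0.29 (SE), with an adjusted p in limma of 1.31e-08. It was the only member called for T2 against T1, at 74.6 ± 11.6 at T2 against 411 ± 13.8 at T1 (SD, n = 3 each). That log2 fold change was -2.36 ± 0.29 (SE), with an adjusted p in limma of 0.000137, and 4.25% of all probe sets were called lower in this step and 5.39% higher. Afterwards the level was 46.3 ± 1.15 at T3 and 51.0 ± 18.2 at T4, both still at least 2.11-fold above the T0 level. T3 against T2 (-0.60 ± 0.29 on the log2 scale, adjusted p in limma 0.392) and T4 against T3 (0.07 ± 0.29, adjusted p 0.955) did not pass the test. In the order of its levels, T1 was highest, T2, T4 and T3 followed without a called difference among them, and T0 was lowest.

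The zinc finger gene hkb, which acts with tll at the poles, also rose at T1 and was lower at T3 than at T1. It had 3.10, 15.5 and 5.10 at T0, 363, 316 and 387 at T1, 228, 253 and 293 at T2, 174, 164 and 142 at T3, and 174, 233 and 146 at T4. The arrays of T1, T2 and T3 formed 3 steps without overlap, and those of T4 overlapped with T2 and with T3. At T1 hkb was at least 16.1-fold higher than at T0, with a fitted log2 fold change of 4.66 ± 0.27 (SE) and an adjusted p in limma of 1.66e-08. No single later step was called (-0.45 ± 0.27, -0.66 ± 0.27 and 0.17 ± 0.27 on the log2 scale, adjusted p in limma 0.347, 0.286 and 0.849). Over 2 steps hkb fell, to 160 ± 16.4 at T3 against 355 ± 36.5 at T1, with a log2 fold change of -1.12 ± 0.27 (SE) and an adjusted p in limma of 0.0082. The share of all probe sets called lower for T3 against T1 was 6.39%. Quantile normalization (-0.97 on the log2 scale) ended that call, as did a pseudocount of 1 (adjusted p in limma 0.0659). For T4 against T1 the log2 fold change of hkb was -0.94, with an adjusted p in limma of 0.0182, which was just short of the fold threshold. It was called with arrays centred on the array median (-1.34, adjusted p in limma 0.00176), without T1 replicate 2 (-1.02) and without T4 replicate 2 (-1.12).

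The difference between both terminal genes was tested on the ratio of their signals within each array, which does not need their levels to be comparable. The ratio of tll to hkb varied between stages more than between arrays (exact permutation test over all partitions of the 15 arrays, p = 0.00525, adjusted p = 0.00657 over 15 pairs of members). Centred on its mean over all arrays, the log2 ratio was 1.25, -0.66, -0.60 and -0.71 from T1 to T4, so that the level of tll relative to hkb was lower at each stage from T2 on than at T1. At T0 both genes were at or below background, so the ratio there has no measured size. Over the 12 arrays from T1 to T4 alone the exact permutation p was 0.0156 (adjusted p = 0.0234). With a pseudocount of 1 the adjusted p over all arrays was 0.0773 (exact permutation p = 0.0722).

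Of btd, ems and oc, only btd had a signal above background on the T0 arrays, and after its rise at T1 no later difference in it was called. Its signals were 63.9, 39.7 and 33.4 at T0, 200, 176 and 245 at T1, 197, 168 and 262 at T2, 168, 187 and 174 at T3, and 229, 303 and 202 at T4. Every array from T1 on was above every T0 array, and among the later stages only T4 and T3 did not overlap. The mean was 207 ± 35.4 at T1 against 45.7 ± 16.1 at T0 (SD, n = 3 each), with a log2 fold change of 2.05 ± 0.25 (SE) and an adjusted p in limma of 1.88e-05. The 6 contrasts among T1, T2, T3 and T4 gave log2 fold changes between -0.21 and 0.44, none of them called. For T4 against T1 the 95% interval ran from -0.31 to 0.76 on the log2 scale.

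ems, a homeobox gene of the antennal and intercalary head segments that is later used in the spiracles, rose at T1 and was lower at T3. It had 16.4, 13.2 and 5.10 at T0, 151, 121 and 95.3 at T1, 57.9, 91.6 and 52.3 at T2, 41.0, 47.9 and 71.8 at T3, and 139, 155 and 99.1 at T4. The arrays of T2 and of T3 all lay below those of T1 and of T4, T2 overlapped with T3, and T1 with T4. At T1 ems was at least 5.47-fold higher than at T0, with a log2 fold change of 2.81 ± 0.30 (SE) and an adjusted p in limma of 5.92e-06. It was lower at T3, with 53.6 ± 16.2 against 122 ± 27.9 at T1, a log2 fold change of -1.10 ± 0.30 (SE) with an adjusted p in limma of 0.0176. This call ended without T1 replicate 1 (-0.95, adjusted p in limma 0.0788), without T3 replicate 1 (-0.95, 0.0748) and without T3 replicate 2 (-1.05, 0.0584). Pseudocounts of 1 (-1.19, 0.0521) and of 29.6, the median signal (-0.87), ended it too, as did centring arrays on the hybridisation controls (adjusted p in limma 0.0631). The return at T4, to 131 ± 28.8 against 53.6 ± 16.2 at T3, was 1.19 ± 0.30 (SE) on the log2 scale and missed the threshold (adjusted p in limma 0.0773). It was called when the dimmest 40% of probe sets were left out (adjusted p in limma 0.0413) and with an intensity trend (0.0425). For T4 against T2 the log2 fold change was 0.91 (adjusted p in limma 0.073), and it was called at 1.13 without T2 replicate 3 (0.0434), where 4.77% of all probe sets were called higher with all arrays. Its rise at T3 against T0 (1.71 on the log2 scale) was 0.98, under the threshold, with arrays centred on ribosomal proteins. The interval of T4 against T1, from -0.56 to 0.75 on the log2 scale, holds 0.

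The homeobox gene oc, needed in the anterior head, kept its level at T2 within the spread of its arrays and was lowest after T0 at T4. Its profile differed from that of tll (exact permutation p = 0.000744, adjusted p = 0.00124). It had 7.40, 1.10 and 2.90 at T0, 123, 128 and 154 at T1, 132, 86.6 and 137 at T2, 75.7, 79.8 and 114 at T3, and 55.3, 32.7 and 51.7 at T4. The T4 arrays lay below those of T1, T2 and T3, the T3 arrays below those of T1, and T2 overlapped with T1 and T3. At T1 oc was at least 6.11-fold higher than at T0, with a log2 fold change of 3.71 ± 0.27 (SE) and an adjusted p in limma of 1.22e-07. For T2 against T1 its log2 fold change was -0.20 ± 0.27 (adjusted p in limma 0.733). oc fell to 46.6 ± 12.1 at T4, against 135 ± 16.6 at T1, with a log2 fold change of -1.42 ± 0.27 (SE) and an adjusted p in limma of 0.00106, where 7.58% of all probe sets were called lower. It was also lower at T4 than at T2 (-1.23 ± 0.27, adjusted p in limma 0.00867, 3.21% of all probe sets called lower). It was not called with a pseudocount of 1 (adjusted p in limma 0.0693) or of 29.6 (-0.95 on the log2 scale), nor when only the 6 arrays compared were fitted (0.0576). Even at T4 oc stood at least 2.06-fold above its T0 level.

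**Figure D2:**
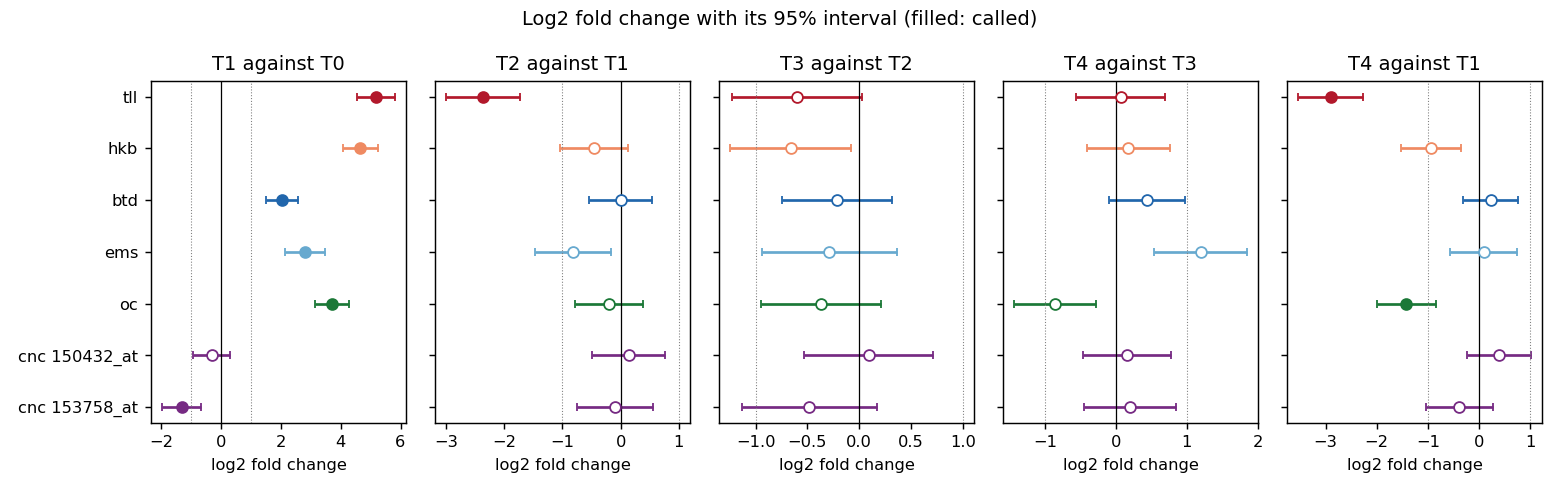
Log2 fold change (horizontal axes, whose ranges differ between panels) with its 95% interval from limma for tll, hkb, btd, ems, oc and 2 cnc probe sets (rows), for the 4 successive steps and for T4 against T1. Filled points were called and open ones were not, and dotted lines mark 1 and -1. The first 5 genes lie at 2.05 to 5.18 for T1 against T0, and tll is the filled point for T2 against T1.

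Neither of the last steps moved a member past the threshold. For T3 against T2 limma called 0 of the 9 probe sets, and 1.44% of all probe sets were called in either direction. For T4 against T3 it called 0 of 9, and 1.07% of all were called. The unadjusted p in limma was under 0.05 for hkb in the first of these steps and for ems and oc in the second. The share of all probe sets under that unadjusted p was not counted. On the T4 arrays replicate 3 gave the lowest signal for tll, hkb, btd and ems. Without it no call of a member changed.

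The 4 cnc probe sets did not show 1 common profile. Which part of the gene or which of its transcripts each of them reports is not given in the sources used here. Probe set 153758_at was highest at T0 and lower at each later stage. Its signals were 112, 99.4 and 94.8 at T0, 33.9, 39.7 and 37.5 at T1, 35.5, 44.2 and 24.7 at T2, 21.4, 41.0 and 11.3 at T3, and 30.4, 18.9 and 32.2 at T4. All T0 arrays were above all others. The mean was 37.0 ± 2.93 at T1 against 102 ± 8.85 at T0, with a log2 fold change of -1.30 ± 0.30 (SE) and an adjusted p in limma of 0.00379. Quantile normalization ended this call (-0.80 on the log2 scale, adjusted p in limma 0.0737), as did a pseudocount of 29.6 (-0.98). It was also called lower against T0 at T2 (-1.40), at T3 (-1.88) and at T4 (-1.69, adjusted p in limma 0.000579), where 14.6%, 13.3% and 12.3% of all probe sets were. Only 1 of its 3 arrays at T3 and 2 of 3 at T4 were above background, so the sizes of those changes are uncertain.

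Probe set 150432_at, the brightest for cnc by its mean over all arrays, had stage means of 59.8 ± 15.8, 46.9 ± 12.8, 52.2 ± 14.0, 55.4 ± 9.68 and 65.0 ± 25.7 from T0 to T4. Its stages overlapped in all pairs, and the F test gave an adjusted p in limma of 0.779. All these means lay within the range of the adult marker Yp2, so this signal may not stand for RNA of the embryo. For T1 against T0 the 95% interval ran from -0.93 to 0.31 on the log2 scale. That of 153758_at ran from -1.95 to -0.65, so the intervals overlap. With arrays centred on ribosomal proteins, however, 150432_at was called lower at T1 (-1.04, adjusted p in limma 0.0129) and at T2 than at T0 (-1.02). Both other cnc probe sets, 150433_at and 151078_at, were at or below the background level on all 15 arrays, with stage means of 3.53 to 9.27 and 5.73 to 12.4, so that no fold is given for them. The profile of 153758_at differed from that of 150432_at (exact permutation p = 0.00709, adjusted p = 0.0283 over the 6 pairs of cnc probe sets).

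**Figure D3:**
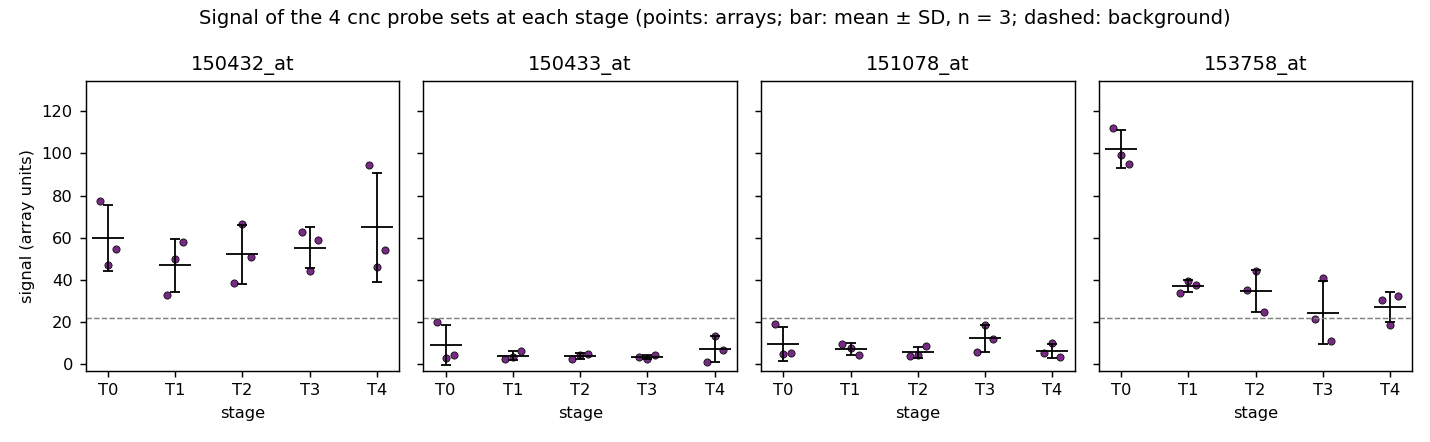
Signal in array units (vertical axis, linear, shared) of the 4 cnc probe sets at the stages T0 to T4. Points are single arrays, the bar with whiskers is the mean ± SD of 3 arrays, and the dashed line is the background level of 22.0. Probe set 153758_at is highest on all 3 T0 arrays, 150432_at overlaps between all stages, and the other two lie below the line.

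Set against each other as ratios within arrays, 13 of the 15 pairs of the 6 genes had different profiles at an adjusted p under 0.05 (exact permutation tests over 1401400 partitions, with cnc represented by 150432_at). The smallest p these can give is 7.1e-07, and where 1 stage alone stands apart it is 0.011. Pairs of genes in general were not tested, so these 13 have no share to be held against. The pairs with cnc set a gene against a probe set without a detected change (F test in limma, adjusted p = 0.779). The smallest p was reached by hkb against btd (exact permutation p = 7.1e-07, adjusted p = 1.07e-05), whose centred log2 ratio was 1.03, 0.57, 0.13 and -0.14 from T1 to T4. All T0 arrays of hkb were at or below background, as were those of tll, ems and oc, so this p also rests on T0 ratios with no measured size. From T1 on, without them, hkb against btd had an exact permutation p of 6.49e-05 (adjusted p = 0.000974). The exceptions were hkb against oc (exact permutation p = 0.0784, adjusted p = 0.084) and btd against ems (exact permutation p = 0.0925, adjusted p = 0.0925), and a p that misses the threshold does not show that their profiles are alike. With a pseudocount of 29.6 hkb against oc passed (exact permutation p = 0.00665, adjusted p = 0.00768). Over the arrays from T1 to T4, 12 of the 15 pairs differed. There the remaining pairs were hkb against oc (exact permutation, adjusted p = 0.0536), btd against ems (0.122) and btd against cnc (0.709). oc and ems differed in both tests (exact permutation, adjusted p = 0.00306 over all arrays and 0.0129 from T1 on), their centred log2 ratio of ems to oc being 1.26 at T4 and -0.79 at T3.

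The trunk gap genes, which pattern the middle of the same blastoderm, were set beside the terminal and head gap genes in the same way. Of 30 pairs of a terminal or head gap gene with hb, Kr, kni, knrl or gt, 27 differed at an adjusted p under 0.05, and 26 over the arrays from T1 to T4. For these counts, too, no share over pairs of genes in general was computed. Of the trunk gap genes 4 of 5 were called higher at T1 than at T0, and 2 (hb and kni) lower at T2 than at T1. The brightest gt probe set missed the fold threshold in the second step (-0.98 on the log2 scale, adjusted p in limma 0.00648), and a second one was called lower (-1.36, 0.00452). Among the terminal and head gap genes these counts were 5 of 6 and 1 of 6, and the shares of all probe sets were 7.82% and 4.25%. The counts of both groups were not tested against each other. For T2 against T1 the log2 fold change of tll, -2.36, was below the -1.38 of kni and the -1.76 of hb. The profiles of tll and kni differed over the arrays from T1 on (exact permutation, adjusted p = 0.00698) and missed the threshold over all arrays (exact permutation, adjusted p = 0.0586). The test was not passed by hkb against gt (exact permutation, adjusted p = 0.196) and oc against kni (0.13), nor from T1 on by btd and ems against Kr (0.0985 and 0.169), hkb against gt (0.0985) and oc against kni (0.0675). hb, of which the egg already holds RNA, differed from each of the 6 (exact permutation, adjusted p between 0.000107 and 0.000357).

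**Figure D4:**
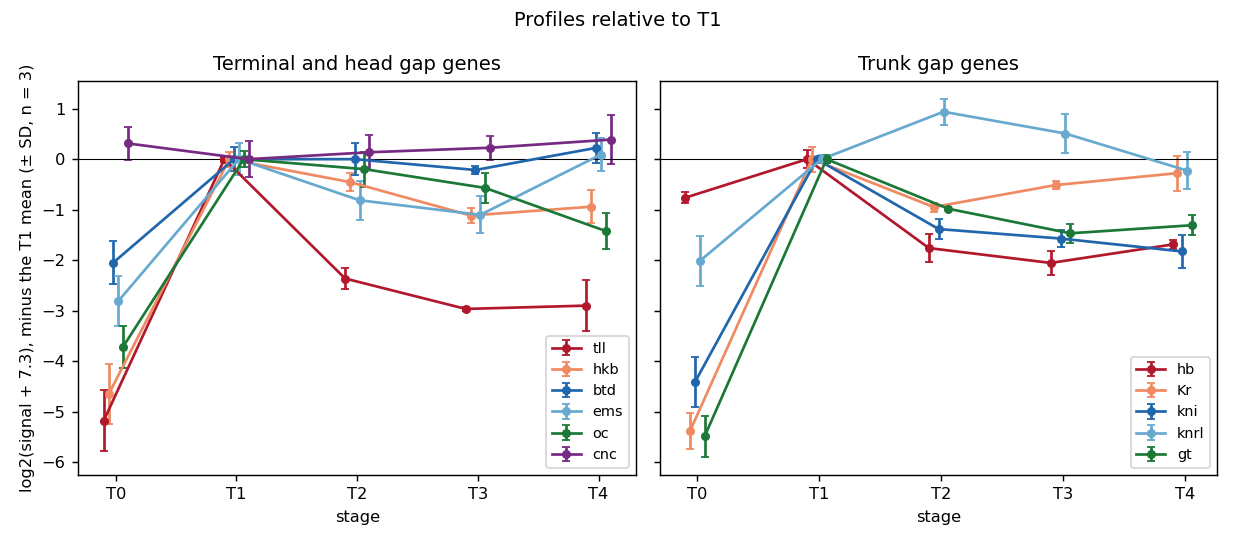
Stage mean of log2(signal + 7.3) minus the mean at T1 (vertical axis, ± SD of 3 arrays) at the stages T0 to T4 (horizontal axis), for the terminal and head gap genes on the left and the trunk gap genes on the right. After T1 tll lies lowest of all 11 genes, at -2.36, -2.96 and -2.90 for T2, T3 and T4, whereas btd stays between -0.21 and 0.22 and knrl of the trunk genes lies at 0.94 at T2.

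The genes with the profiles most like each member were taken by Pearson correlation over the 15 arrays among 7802 genes whose highest stage mean was above background. These correlations are descriptions, since all genes share the same arrays and a rise at T1 is common to many. For tll the nearest were halo (r = 0.969), a gene of lipid droplet transport that had 4672 ± 480 at T1 and 631 ± 55.9 at T2, and then BRWD3 (0.960), srw (0.946), trbl (0.942) and Atg101 (0.942). For hkb they were egr (0.982), gt (0.979), Art2, Nrt and croc (0.967, 0.967 and 0.966). For oc they were CG6015 (0.978), Nrt (0.974), the protease gene tld (0.972), Pka-C3 (0.971) and opa (0.969), a zinc finger gene that also had its lowest mean after T0 at T4. For btd they were CG15480 (0.969), CG4440, Incenp, CG13427 and Flacc, and for ems RpS29 (0.937), Chro, jing, chif and phyl. For cnc 153758_at they were CG13601 (0.929), muskelin, CG8399, Treh and CG14613, each of which was highest at T0. Under Spearman correlation only 0 to 2 of the 5 genes stayed among the nearest 5 of a member. Members were not each other's nearest: hkb stood at place 58 of the genes nearest to tll (r = 0.847), and btd at place 17 of those nearest to ems (r = 0.887).

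Upstream, RNAs of several maternal genes of the terminal system fell in the step in which tll and hkb rose. Of 19 listed genes of this pathway 15 had a probe set, and for T1 against T0 5 were called lower and 1 higher, where 15% and 7.82% of all probe sets were (median -0.25 on the log2 scale, beside 0.08 for all probe sets). fs(1)N, which is needed in the egg covering for Torso activation, had 6.60 ± 1.54 at T1 against 474 ± 118 at T0. Also called lower were clos (30.7 ± 8.32 against 127 ± 31.8), of the same group, trk, for the ligand (10.5 ± 5.56 against 52.8 ± 5.85), the kinase gene Dsor1 (95.1 ± 11.6 against 357 ± 35.1) and the phosphatase gene Mkp3 (99.4 ± 11.1 against 235 ± 45.0), the last named after its values were seen. A second clos probe set was called lower too (8.33 ± 6.09 at T1 against 104 ± 27.9 at T0, adjusted p in limma 1.68e-05). A dimmer probe set each for trk and clos was not called, but both had all stage means below the background level, where a fall could not be seen. The receptor gene tor itself was not called at T1 (405 ± 36.1 against 314 ± 84.9 at T0) and fell with tll in the next step, to 59.3 ± 22.6 at T2, a log2 fold change of -2.69 with an adjusted p in limma of 0.00123.

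Of the repressors of tll and hkb, gro was higher at T1, with 1048 ± 68.8 against 490 ± 40.7 at T0 by its brightest probe set, and a second probe set (364 ± 30.6 against 85.9 ± 15.6) was called in the same direction. For T2 against T1 the brightest was not called (-0.10) and the second was called higher (791 ± 178 against 364 ± 30.6 at T1, adjusted p in limma 0.00368). For T4 against T0 both gro probe sets disagreed, at -0.34 (adjusted p in limma 0.214) and 3.27 (4.67e-08) on the log2 scale. cic was not called at T1 (-0.25) and was lower at T2, with 103 ± 27.5 against 223 ± 54.8 at T1 (adjusted p in limma 0.0195), by 1 of its 2 probe sets. sty, an inhibitor of receptor tyrosine kinase signalling, was higher at T2, with 141 ± 31.9 against 37.1 ± 22.1 at T1 (adjusted p in limma 0.00575). By their brightest probe sets, 2 of the 15 genes were thus called lower at T2 than at T1 (tor and cic) and 1 higher (sty), where 4.25% and 5.39% of all probe sets were. A dimmer probe set for Mkp3 was called higher there too (46.3 ± 24.4 against 11.4 ± 3.64 at T1, adjusted p in limma 0.0342), while the brightest was not called (0.67 on the log2 scale).

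In a mixed list of maternal patterning genes and activators, bcd, swa and cad fell in both of the first 2 steps. The list is not limited to the anterior system, as it also holds cad and pum. Of 10 listed genes, hb among them, 9 were measured, 4 lower and 2 higher at T1 than at T0, and 7 lower at T2 than at T1 (median -1.76 on the log2 scale, beside 0.14 for all probe sets). The 7 include hb, pum, zld and Stat92E, none of which was called lower at T1 than at T0. The shares of all probe sets were 15% lower and 7.82% higher in the first step and 4.25% lower in the second. bcd, whose protein activates the head gap genes, had 86.3 ± 20.7 at T1 against 432 ± 73.3 at T0, and 7.60 ± 8.66, below the background level, at T2. cad fell in both steps, as did swa, needed for bcd RNA localisation, by 1 of its 2 probe sets, and exu fell in the first. The higher ones were zld, the general activator of the zygotic genome (592 ± 102 at T1 against 117 ± 53.9 at T0), and Stat92E (1029 ± 280 against 402 ± 51.5), Stat92E by 1 of its 2 probe sets, and both were lower again at T2. A second probe set for stau, named after its values were seen, was also higher at T1 (432 ± 41.5 against 105 ± 23.4 at T0), while the brightest was not called (0.66 on the log2 scale).

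Genes listed for the gut ends and for the head were called higher at different stages. Whether the members act on them was not tested, and cad is also in the maternal list above. Of 11 measured hindgut and midgut genes of 13 listed, 4 were called higher and 1 (cad) lower at T1 than at T0, where 7.82% and 15% of all probe sets were. At T2 against T1 the counts were 3 higher and 1 lower, beside 5.39% and 4.25% of all. byn, a T-box gene of the hindgut that tll activates, had 219 ± 15.6 at T1 against 10.5 ± 7.45 at T0. Its highest mean, 305 ± 20.9, was at T2. fkh, of both gut ends and named after its values were seen (96.0 ± 22.3 at T1 against 19.5 ± 11.6 at T0), the GATA factor gene srp, of the midgut (101 ± 23.5 against 5.70 ± 3.72), and eve, a pair-rule gene used again in the posterior, were also higher at T1. drm, hh and bowl were called at T2 instead, with drm at 50.9 ± 8.05 against 7.27 ± 3.78 at T1.

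Of 24 head patterning genes listed 19 were measured, and 7 were called higher at T1 than at T0, where 7.82% of all probe sets were. At T2 against T1 3 were called higher and 1 lower, beside 5.39% and 4.25% of all, and at T4 against T0 14 were called higher, beside 11.9%. Among those of T1 were opa (386 ± 114 at T1 against 1.87 ± 1.97 at T0), the Sox gene D (471 ± 32.8 against 7.53 ± 8.64) and the forkhead gene croc (186 ± 46.4 against 51.5 ± 2.37). D fell at T2 (221 ± 53.7 against 471 ± 32.8 at T1, adjusted p in limma 0.042), and it was the 1 head gene called lower there. The homeobox genes Dr and Optix and the Hox gene Dfd were higher at T2 than at T1, and Six4 and Dr at T3 than at T2, where 0.666% of all probe sets were called higher. The eye and head genes Six4 and eya had their highest means at T4, with 122 ± 25.0 and 112 ± 3.50.

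**Figure D5:**
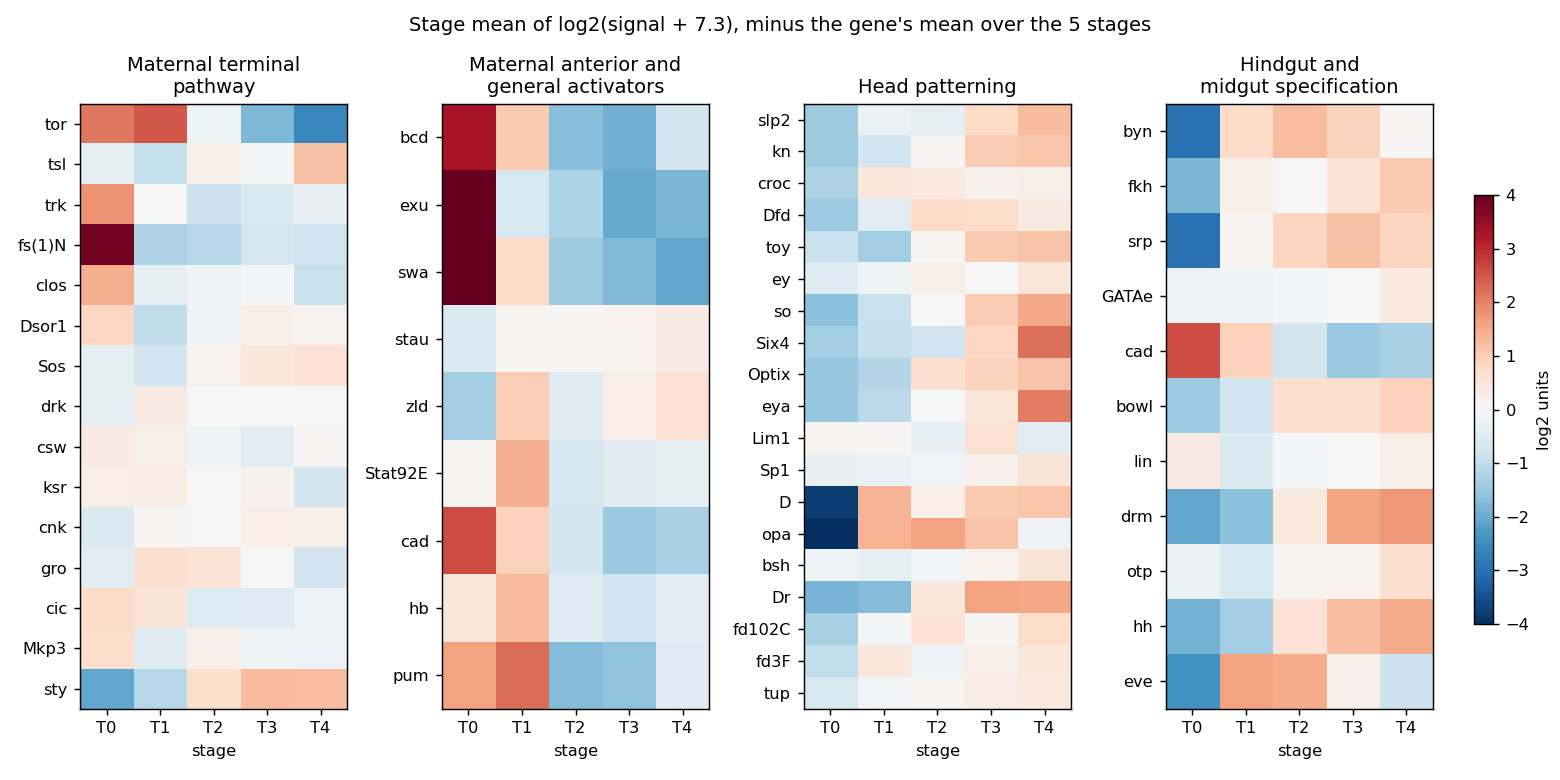
Stage mean of log2(signal + 7.3) minus the mean of the gene over its 5 stages (colour, red above and blue below, with colours ending at 4 and -4), for the measured genes (rows) of 4 lists at the stages T0 to T4 (columns). exu, fs(1)N, swa and bcd are deepest red at T0, tor is red at T0 and T1, and Six4 and eya are reddest at T4.

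Relatives that lie next to 2 of the head gap genes were not called in the step in which btd and ems rose. In the gene order of the RefSeq assembly, looked up after the values of the members were seen, E5 is the neighbour of ems and Sp1 that of btd, each encoding a protein of the same family. E5 had stage means between 3.30 and 7.90, below the background level. Sp1 had 31.7 ± 2.22, 33.0 ± 6.86, 37.7 ± 5.46, 47.9 ± 3.04 and 65.0 ± 26.9 from T0 to T4, and its F test gave an adjusted p in limma of 0.0793.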

How the data were processed

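Transcript levels were taken from 15 Affymetrix arrays, 3 for each of 5 stages, with stage and replicate number from the sample titles. The deposited values are linear signals, for which the submitters' processing notes name MAS5 without a version. The 2% trimmed mean of each array was 100, found from the values. The 44 control probe sets were left out, and symbols of 12394 of the 12443 probe sets with 1 symbol were updated through Entrez identifiers to RefSeq. A gene was represented by its brightest probe set, and all probe sets of the 6 genes are described.

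The test used log2(signal + 7.3), 7.3 being the arrays' median 25th percentile, with 1 mean per stage in limma 3.58.1 (R 4.3.3), Benjamini-Hochberg adjustment per contrast, and 10 contrasts of a later against an earlier stage. Profiles of 2 genes were compared with an exact permutation test of the between-stage F statistic of their log2 ratio, with adjustment over the pairs. The script was tested on simulated data. For folds worded "at least", 22.0 replaced dimmer signals. The members, lists and tests were chosen with earlier results of these data known. Named genes were all members, up to 3 called genes per direction and contrast in each list, and the 5 nearest profiles of a member. Alternatives were other scalings, pseudocounts, filters, prior settings, a replicate block, fits of 6 arrays and leaving out each array. The number of arrays limits the precision. No depth applies to arrays, and sequences were not used here.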

Additional observations from a re-analysis of the deposited data

How the results depend on the processing

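Of 31 calls among the 90 log2 fold changes of the 9 probe sets, 26 held under all alternatives run for them, and no called value changed its sign. The calls for T1 against T0 of tll, hkb, btd, ems and oc held throughout. With arrays centred on ribosomal proteins the median of all probe sets for T1 against T0 was -0.66 on the log2 scale, against 0.08 as deposited, and 295 probe sets were higher and 3786 lower, against 1092 and 2097. Quantile normalization gave 1430 and 1773, centring on the median 1716 and 1880, and centring on the hybridisation controls 342 and 2844. With arrays centred on ribosomal proteins, calls of lower probe sets relative to T0 numbered 3 at T1 (1 as deposited), 4 at T2 (1) and 2 at T3 (1), through cnc, and 1 was higher at T4 than at T2 (0 as deposited, ems). The number lower at T1 than at T0 was 0 after quantile normalization and 0 with a pseudocount of 29.6, in place of 1 (cnc). With arrays centred on the median 2 were lower at T2 than at T1, in place of 1 (ems was added). The number lower at T3 than at T1, 3 as deposited, was 1 with a pseudocount of 1. The number lower at T4 than at T2, 1 as deposited (oc), was 0 with a pseudocount of 1, 0 with one of 29.6 and 0 when only those 6 arrays were fitted. The number higher at T4 than at T3, 0 as deposited, was 1 without the dimmest probe sets and 1 with an intensity trend (ems). Leaving out 1 array at a time gave 0 to 1 higher at T4 than at T2. The causes were not tested. Centring on ribosomal proteins was planned, and that on the hybridisation controls and the tests without T0 were chosen after seeing the data.

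With the replicate number as a replicate block 5 members were called higher at T1 than at T0, as without it, and no call of a member changed. Deviations of same-numbered arrays of different stages correlated with r between -0.042 and 0.075 (median 0.019). Those of differently numbered arrays correlated with r between -0.1 and 0.055 (median -0.007). Of 15 arrays, 8 correlated best with an array of their own number. All these correlations are small, but a weak pairing by number is not excluded.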
